A study of Mus musculus with 6 samples.

Results

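The data concern 8 mature miRNAs of 5 families that are best known from neurons, mmu-miR-9-5p, mmu-miR-9-3p, mmu-miR-124-3p, mmu-miR-124-5p, mmu-miR-153-3p, mmu-miR-153-5p, mmu-miR-128-3p and mmu-miR-218-5p, measured in mouse pancreatic islets and named below without the prefix mmu for mouse. They were chosen by name, with earlier results of these data known. All 8 were among the 1011 rows of the deposited small RNA table. Small RNA was sequenced from primary islets of HFD-fed mice and of NCD-fed mice, with 3 libraries per diet. The labels give no genotype, agent, strain, age or length of feeding for either diet, and they do not say whether a library came from 1 animal or a pool. Where libraries of a diet share an animal or a pool, the p-values below measure only technical spread.

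Islet endocrine cells and neurons share much of their secretory machinery, including dense-core vesicles and regulated exocytosis. Both lack the repressor REST, which silences neuronal genes, miR-9 and miR-124 among them, in most other cells. A miRNA guides silencing of mRNAs that pair with its seed, bases 2 to 8 of the mature strand. Each hairpin can release a strand from its 5p and its 3p arm, and usually 1 of the 2 arms is kept far more often.

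The seeds show that the 8 miRNAs are not a sequence family. All 8 seeds were distinct, and 7 were found in no other row of the table. The seed of miR-128-3p was also that of miR-6539, a row with 13 reads in all. The sequences below are the deposited ones, with the seed in capitals, and the 6 shown were identical to the RefSeq entries (GRCm38.p6).
miR-9-5p: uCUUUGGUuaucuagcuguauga
miR-9-3p: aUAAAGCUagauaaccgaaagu
miR-128-3p: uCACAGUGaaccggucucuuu
miR-218-5p: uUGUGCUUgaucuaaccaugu
miR-153-3p: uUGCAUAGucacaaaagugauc
miR-153-5p: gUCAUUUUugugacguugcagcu

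The hairpins of miR-9, miR-128, miR-218 and miR-153 lie apart in the genome (GRCm38, GENCODE M21 genes). The 3 copies of mir-9 are on the plus strand in long noncoding RNA genes, at chr3:88215598-88215686 in an intron of Gm3764, at chr13:83738814-83738885 over an exon of C130071C03Rik and at chr7:79505264-79505353 in an intron of Mir9-3hg. The mir-128 hairpins lie at chr1:128202361-128202430 in an intron of R3hdm1 and, on the minus strand, at chr9:112118636-112118711 in an intron of Arpp21. The mir-218 hairpins lie at chr5:48223942-48224051 and chr11:35616816-35616925, in introns of the axon guidance genes Slit2 and Slit3. The mir-153 hairpin lies at chr12:117250817-117250885 in an intron of Ptprn2, which encodes phogrin, a membrane protein of dense-core secretory granules.

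The HFD libraries held 9431818 to 11059628 counts and the NCD libraries 7166712 to 11172255. Levels are CPM, counts scaled to a common library size, with TMM factors to correct for differences in composition. The factor of NCD 3 was 1.73, against 0.84 to 0.99 in the other 5 libraries. Where a library had 0 reads of a miRNA, a true level under 0.213 to 0.445 CPM, depending on the library, could be missed; this limit of 3 counts covers counting error only. As to the labelled tissue, the 8 islet endocrine marker miRNAs, led by miR-375-3p, summed to 489000 to 577700 CPM in HFD and 278800 to 631700 CPM in NCD libraries.

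Islets held the neural miRNAs at levels from 628 CPM, for miR-9-5p in HFD 2, down to 0 reads, for miR-124-5p in HFD 1. By mean level over the 6 libraries, miR-9-5p stood at rank 56, miR-128-3p at 85 and miR-218-5p at 135 of the 1011 rows. A second tier held miR-153-3p at rank 243, miR-9-3p at 284, miR-124-3p at 292 and miR-153-5p at 301. The 5p strand of miR-124 stood at rank 543, with 18 reads over all 6 libraries. The 3 leading miRNAs made up 93.3% to 97.1% of the members' reads in HFD and 95.2% to 97.0% in NCD libraries.

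**Figure D1:**
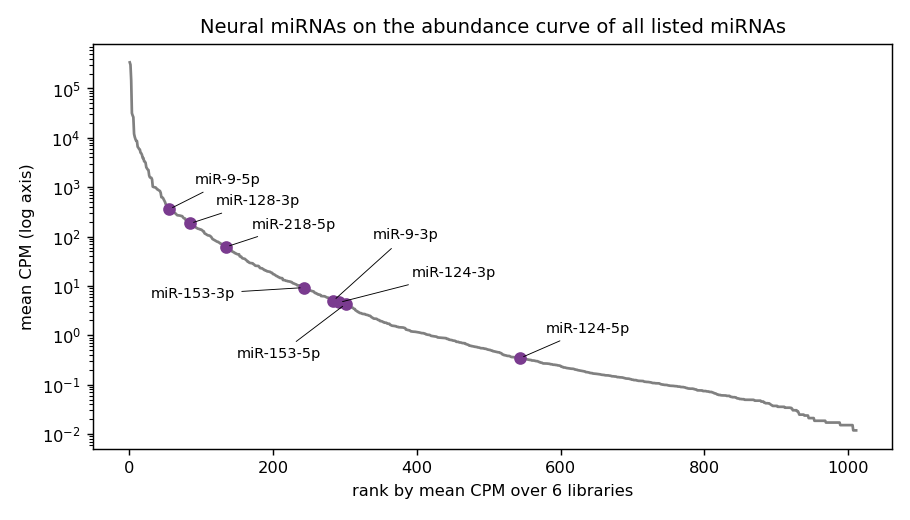
Mean CPM over 6 libraries (log axis) against rank for all listed miRNAs (grey line), with the 8 neural miRNAs as points. miR-9-5p, miR-128-3p and miR-218-5p sit at ranks 56, 85 and 135, 4 others between ranks 243 and 301, and miR-124-5p at rank 543.

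miR-9-5p exceeded miR-128-3p in 5 of 6 libraries, HFD 3 being the exception. miR-128-3p exceeded miR-218-5p, and miR-218-5p exceeded miR-153-3p, in 6 of 6. The lowest value of miR-218-5p, 22.6 CPM, lay above the highest of miR-153-3p, 12.9 CPM. In the second tier miR-9-3p exceeded miR-124-3p in 4 of 6 libraries and miR-124-3p exceeded miR-153-5p in 4 of 6, so these 3 were not told apart beyond their spread. Ligation-based libraries favour some miRNA ends, so the order of levels between miRNAs is less certain than the level of 1 miRNA between libraries.

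**Figure D2:**
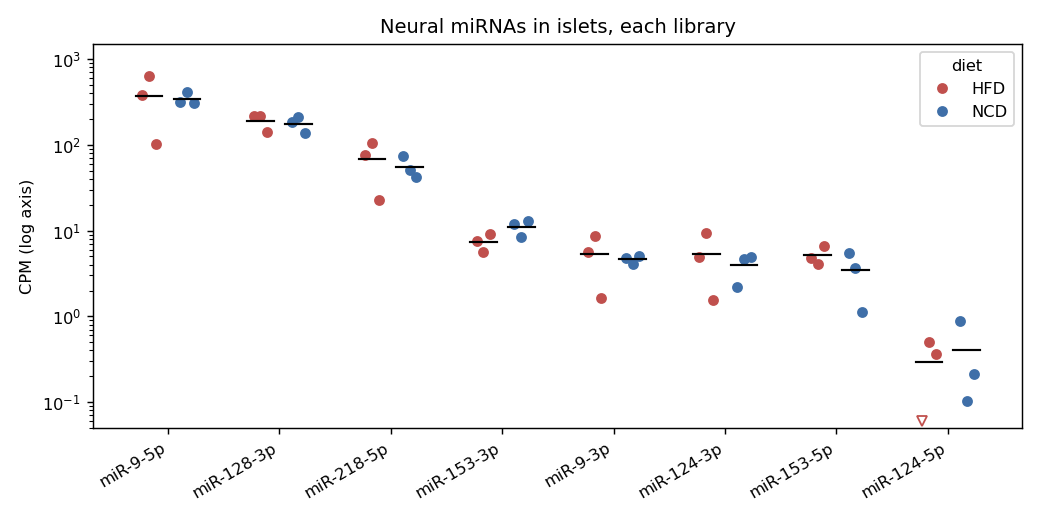
CPM of each neural miRNA (log axis) in the 3 HFD and 3 NCD libraries, one point per library, with black bars for the mean. The open triangle at the bottom stands for the HFD 1 library with 0 reads of miR-124-5p. The diets overlap for each miRNA shown.

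miR-9-5p, which promotes neuronal differentiation and in rat insulin-secreting cells restrains secretion through the transcription factor Onecut2, was the most abundant of the 8. Its level was 379.7, 628 and 103 CPM in HFD 1, 2 and 3, against 318, 416 and 305 CPM in NCD 1, 2 and 3. At this TMM scaling the HFD libraries held both the highest and the lowest value and enclosed the NCD range. As a share of library totals, NCD 3 was highest, at 0.05284%, against 0.05278% in HFD 2, and HFD 3 was still lowest. The log2 fold change of HFD over NCD was 0.096 ± 0.48 (SE, 95% interval -0.95 to 1.14), and the edgeR quasi-likelihood adjusted p over 406 tested miRNAs was 0.943. The passenger strand miR-9-3p had 5.68, 8.71 and 1.64 CPM in the HFD libraries, against 4.75, 4.10 and 5.05 CPM in the NCD libraries. Again HFD 2 was highest and HFD 3 lowest, and the log2 fold change was 0.15 ± 0.56 (SE, edgeR adjusted p = 0.931). On library totals NCD 3 was highest for miR-9-3p too.

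The reads of miR-9-5p also appear in the table under another name. miR-9b-3p is annotated on the opposite strand at each of the 3 mir-9 loci, and its 21 bases are the exact reverse complement of bases of miR-9-5p, as the capitals mark.
miR-9b-3p: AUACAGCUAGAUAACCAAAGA
The miR-9-5p row held 20010 reads and the miR-9b-3p row 19972, a difference of 0.19%, and their profiles over the 6 libraries differed by a root mean square of 0.0017 on the log2 scale. The rows of miR-124-5p and miR-124b-3p, which share 21 bases as reverse complements, held the same count in each library, 18 reads in all. The remaining such pair that holds a member, miR-9-3p and miR-9b-5p, shares 19 bases and held 281 and 10 reads. No source used here gives the counting step or its use of strand, so from these rows alone the strand of origin cannot be told apart.

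miR-124-3p, the most abundant miRNA of mature neurons, where it holds down non-neuronal transcripts, was a minor miRNA in islets. It had 4.90, 9.34 and 1.55 CPM in the HFD libraries (44, 74 and 17 reads), against 2.23, 4.71 and 4.98 CPM in the NCD libraries (15, 46 and 70 reads). HFD 2 was highest, HFD 3 lowest, and the diets overlapped. As a share of library totals NCD 3 was highest instead, above HFD 2. The log2 fold change was 0.28 ± 0.60 (SE, 95% interval -1.01 to 1.57; edgeR adjusted p = 0.889). The 5p strand had 0, 4 and 4 reads in the HFD libraries, against 6, 1 and 3 in the NCD libraries. It did not pass the filter on low counts, and 0 reads in HFD 1 allow up to 0.334 CPM there. The highest level of miR-124-3p in any library, 9.34 CPM, lay below the lowest of miR-9-5p, 103 CPM.

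miR-128-3p, which limits the excitability of neurons, was the steadiest of the tested members. It had 219, 214 and 139.7 CPM in the HFD libraries, against 186, 209.9 and 136 CPM in the NCD libraries. At this TMM scaling replicate 3 was the lowest of each diet, and the 2 ranges nearly coincided. As a share of library totals NCD 3 was the highest library, at 0.02349%, against 0.01389% to 0.01845% in the HFD libraries. The log2 fold change was 0.11 ± 0.32 (SE, 95% interval -0.58 to 0.80; edgeR adjusted p = 0.918). Its spread over the 6 libraries was an SD of 0.32 on the log2 scale, against 0.45 to 0.92 for the other 6 tested members.

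Both mir-128 hairpins give the same 3p strand, and only their 5p strands tell them apart. The hairpins are shown with the 5p strand in capitals and credited to RefSeq.
Mir128-1: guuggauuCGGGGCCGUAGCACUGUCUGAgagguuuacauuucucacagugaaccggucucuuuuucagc
Mir128-2: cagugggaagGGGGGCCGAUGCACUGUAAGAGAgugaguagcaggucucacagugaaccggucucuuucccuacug
miR-128-1-5p, from the R3hdm1 intron, had 60 reads over the 6 libraries and miR-128-2-5p, from the Arpp21 intron, had 3. The first therefore made up 95.2% of the 63 reads (exact 95% binomial interval 86.7% to 99.0%). This interval pools the reads of the 6 libraries and covers counting error only, not the spread between libraries. Of the 3 miR-128-2-5p reads, 2 were in HFD 1. These 5p reads were 0.60% of the 10477 reads of miR-128, and how the 3p reads divide between the hairpins was not measured. Arpp21 is a gene of striatal and other forebrain neurons, and R3hdm1 is transcribed in many tissues. Host gene transcripts were not measured here, and their part in the split of the 5p reads was not tested.

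miR-218-5p, a miRNA of motor neurons, had 76.2, 105 and 22.6 CPM in the HFD libraries, against 73.3, 50.9 and 42.7 CPM in the NCD libraries. HFD 2 was highest and HFD 3 lowest, as for the TMM-scaled levels of miR-9 and miR-124-3p. The log2 fold change was 0.29 ± 0.47 (SE, 95% interval -0.72 to 1.30; edgeR adjusted p = 0.842). The table rows analysed here hold no 3p strand of mir-218, so its hairpins could not be told apart.

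miR-153 differs from the others in lying within a gene of the secretory granule. Its hairpin is shown with both mature strands in capitals, 5p first, from RefSeq.
Mir153: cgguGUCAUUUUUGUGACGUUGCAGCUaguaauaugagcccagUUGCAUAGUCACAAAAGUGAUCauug
miR-153-3p had 7.46, 5.55 and 9.09 CPM in the HFD libraries, against 12.02, 8.40 and 12.9 CPM in the NCD libraries. Only HFD 3 reached into the NCD range. The log2 fold change was -0.58 ± 0.41 (SE, 95% interval -1.47 to 0.31; edgeR adjusted p = 0.597). miR-153-5p had 4.79, 4.04 and 6.55 CPM in the HFD libraries, against 5.49, 3.69 and 1.14 CPM in the NCD libraries, NCD 3 standing lowest. The log2 fold change was 0.73 ± 0.57 (SE, 95% interval -0.49 to 1.96; edgeR adjusted p = 0.627), and it was 0.15 without NCD 3.

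None of the 7 tested members passed the edgeR threshold, an adjusted p of 0.05, and none had an unadjusted p under 0.05, a level that 10.1% of the 406 tested miRNAs reached. DESeq2 and limma-voom also called 0 of the 7. Over the whole table the same test called 0.246% of 406 miRNAs, and the 1 called was not a member. None of the 7 had diets that did not overlap, where 15.3% of the tested miRNAs had. Of the 7, 6 had a positive and 1 a negative log2 fold change, with a median of 0.15, against 51.5% positive and a median of 0.02 over all tested miRNAs. The 95% intervals of miR-9-5p and miR-218-5p reached from -0.95 to 1.14 and from -0.72 to 1.30, so these libraries did not exclude differences inside these intervals. The signs of miR-9-5p, miR-9-3p, miR-124-3p, miR-128-3p and miR-218-5p turned negative with library totals as the only scaling, which moved the median of all miRNAs to -0.37. Single libraries also set these signs: without HFD 2 those of miR-9-5p, miR-9-3p, miR-124-3p and miR-218-5p were negative (-0.52, -0.39, -0.41 and -0.17), without NCD 3 those of miR-9-5p and miR-128-3p (-0.060 and -0.11), and without HFD 1 that of miR-128-3p (-0.00095). Both miR-153 strands kept their sign whichever library was left out.

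**Figure D3:**
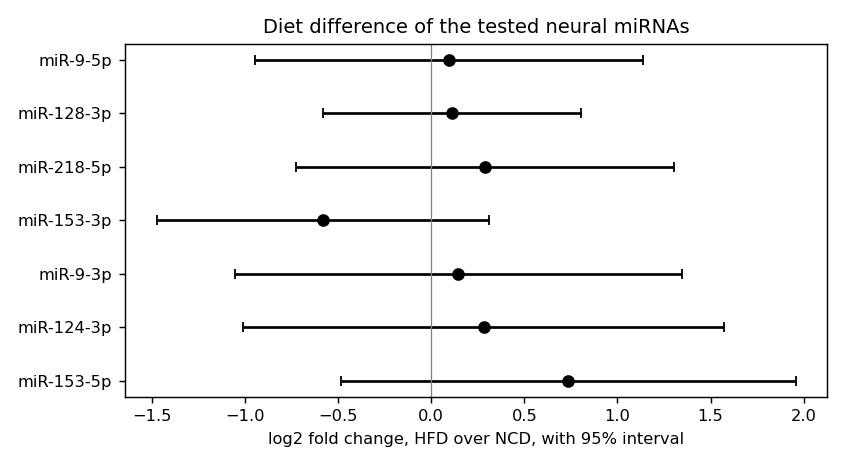
Log2 fold change of HFD over NCD with its 95% interval (edgeR quasi-likelihood fit) for the 7 tested neural miRNAs, ordered from the highest mean level at the top. Each interval includes 0.

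The 8 members summed to 698, 976 and 284 CPM in the HFD libraries, against 602, 698 and 508 CPM in the NCD libraries. The means were 653 ± 348 CPM in HFD and 603 ± 95.01 CPM in NCD libraries (SD, n = 3 each), and the difference of 50.3 CPM was smaller than the spread within HFD. It was -111 CPM without HFD 2, 234 CPM without HFD 3 and -122 CPM on raw library totals, so its sign rests on single libraries and on the scaling.

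The HFD libraries differed among themselves in miR-9, miR-124-3p and miR-218-5p. In HFD 3, the log2 level of miR-9-5p minus its mean over the remaining 5 libraries was -1.94, that of miR-9-3p -1.71, that of miR-124-3p -1.59 and that of miR-218-5p -1.55. Of the 406 tested miRNAs, 9 lay further down in HFD 3 than miR-9-5p and 24 further than miR-218-5p. Of the 7 tested members these 4 were lowest in HFD 3, where 18.7% of all tested miRNAs had their lowest value. HFD 3 and these 4 were picked out from the same values, and 2 of the 4 are arms of miR-9, so this is a description only. In the log2 difference given above, miR-153-3p was at 0.037, miR-153-5p at 0.94 and miR-128-3p at -0.45. Without HFD 3 the log2 fold changes were 0.49 for miR-9-5p, 0.72 for miR-124-3p and 0.65 for miR-218-5p, and without HFD 2 they were -0.52, -0.41 and -0.17.

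**Figure D4:**
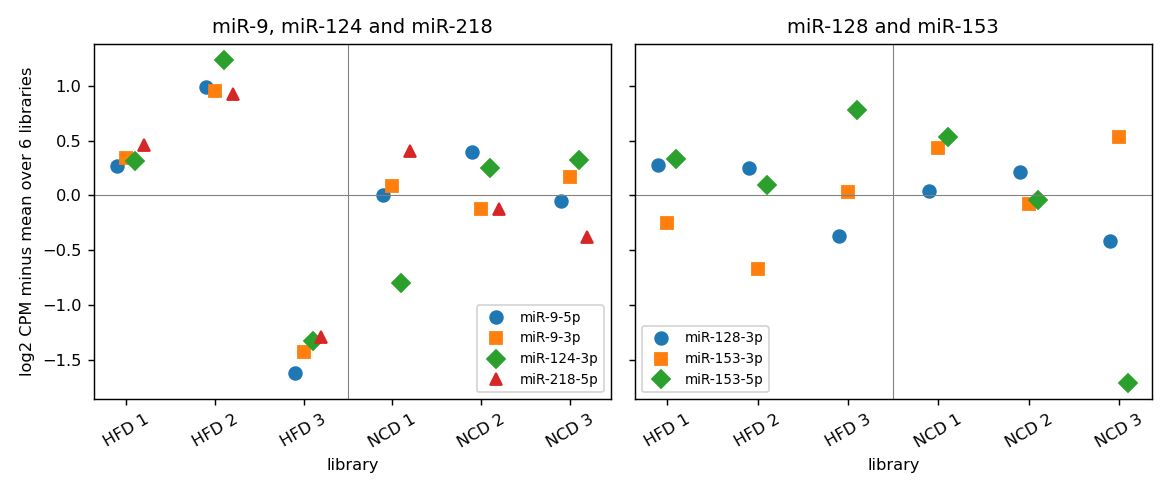
Log2 CPM of each tested neural miRNA minus its mean over the 6 libraries, HFD libraries left of the vertical line and NCD libraries right of it. In the left panel miR-9-5p, miR-9-3p, miR-124-3p and miR-218-5p are highest in HFD 2 and lowest in HFD 3, while in the right panel miR-153-5p is lowest in NCD 3.

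Some markers of other cells also had their lowest value in HFD 3, and others did not. Of the tested markers, 3 of 4 for fibroblasts and smooth muscle, 2 of 2 endothelial, 1 of 3 leukocyte, 1 of 2 muscle and the 1 liver marker had their lowest value in HFD 3, against 0 of 3 acinar, 0 of 2 glial and 0 of 1 erythroid markers. Of the 8 islet endocrine markers 1 was lowest there, and of 16 tested miRNAs listed as brain-enriched beside the members 3 were, against 18.7% of all tested miRNAs. The 2 tested glial markers are also among these 16. The 4 fibroblast and smooth muscle markers summed to 2674, 4969 and 1325 CPM in HFD 1, 2 and 3, against 1511 to 2972 CPM in NCD libraries. Nearly all of this sum was miR-143-3p, with 2643, 4941 and 1313 CPM in HFD 1, 2 and 3. miR-214-3p was also highest in HFD 2 and lowest in HFD 3, whereas miR-199a-3p was highest and miR-145a-5p lowest in HFD 1. The 2 endothelial markers, both arms of miR-126a, summed to 311, 434 and 299.8 CPM in the HFD libraries, against 346 to 748 CPM in the NCD libraries. HFD 3 thus lay close to HFD 1, with miR-126a-3p at 294.6 and 304.2 CPM. The 5 leukocyte markers had sums of 10.1, 13.3 and 6.18 CPM in the HFD libraries, against 13.0 to 30.4 CPM in the NCD libraries. The 3 muscle markers summed to 24.8, 62.1 and 14.2 CPM in the HFD libraries, with miR-133a-3p at 0 in HFD 3, against 52.8 to 127.7 CPM in the NCD libraries. The liver marker miR-122-5p had 44.3, 68.3 and 34.1 CPM in the HFD libraries, against 61.3 to 757 CPM in the NCD libraries. Its row and that of miR-122b-3p each held 8120 reads. The 3 miRNAs listed as glial markers summed to 4.01, 5.30 and 1.64 CPM in the HFD libraries, against 0.89 to 2.70 CPM in the NCD libraries. Of these, miR-219a-5p was at 0 in HFD 3 and in all NCD libraries, and miR-219a-2-3p and miR-338-3p had 88 and 67 reads in all. Whether these reads came from nerve tissue was not tested. The 4 acinar markers summed to 20.2, 139 and 205 CPM in the HFD libraries, highest in HFD 3, against 111 to 418 CPM in the NCD libraries, and the 2 erythroid markers to 42.8, 134 and 41.3 CPM, against 33.4 to 127 CPM. The part of these cells in the low values of HFD 3 was not tested, and in whole islets fewer cells of a type and less RNA per cell cannot be told apart.

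The rows whose profiles over the 6 libraries were most like those of the 3 leading members were found by the root mean square difference of centred log2 levels. For miR-9-5p, after miR-9b-3p with its shared reads, these were miR-9-3p at 0.25 and miR-214-3p, a fibroblast marker at about 1 CPM, at 0.28, against a median of 0.94 over all tested miRNAs. For miR-218-5p they were miR-9-3p at 0.27, the beta-cell miRNA miR-184-3p at 0.32 and miR-669c-5p at 0.32 (median 0.86). For miR-128-3p they were miR-30c-2-3p at 0.11, miR-676-5p at 0.17 and miR-99a-5p at 0.18 (median 0.57). Between members, miR-9-5p and miR-124-3p differed by 0.399 and miR-9-5p and miR-218-5p by 0.34, while miR-153-5p and miR-124-3p were furthest apart at 1.40.

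The next question was whether the balance of the arms differed between diets. The 5p strand of miR-153 made up 39.1%, 42.1% and 41.9% of the reads of both arms in the HFD libraries, against 31.4%, 30.5% and 8.08% in the NCD libraries. Each HFD share lay above each NCD share. The exact 95% binomial intervals of HFD 1 (29.9% to 48.9%) and NCD 1 (23.1% to 40.5%) overlapped, whereas that of NCD 3 (4.69% to 12.8%, from 16 of 198 reads) lay apart from all others. The 3p to 5p log2 ratio averaged 0.52 ± 0.10 in HFD and 1.92 ± 1.34 in NCD libraries (SD, n = 3 each), a difference of -1.40. The two-sided exact permutation p was 0.1, the smallest that 3 against 3 allows, and 0.839 after adjustment over the 172 arm pairs of the table. Of those pairs, 10.5% had ratios that did not overlap between diets. limma on all 172 ratios gave miR-153 an adjusted p of 0.643 and called 0 pairs. Without NCD 3 the difference was -0.63.

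miR-9 and miR-124 showed no such separation. The 3p strand of miR-9 made up 1.47%, 1.37% and 1.56% in the HFD libraries, against 1.47%, 0.976% and 1.63% in the NCD libraries. Its 5p to 3p log2 ratio averaged 6.05 ± 0.11 in HFD and 6.20 ± 0.39 in NCD libraries (SD, n = 3 each; two-sided exact permutation p = 0.9). The 5p strand of miR-124 made up 0%, 5.13% and 19.0% in the HFD libraries, against 28.6%, 2.13% and 4.11% in the NCD libraries, from at most 6 reads. Its 3p to 5p log2 ratio averaged 4.16 ± 2.26 in HFD and 3.51 ± 1.98 in NCD libraries (SD, n = 3 each; two-sided exact permutation p = 0.8). The 5p counts of miR-124 did not follow those of its 3p strand: the highest, 6 reads, stood in NCD 1, which had the fewest 3p reads, 15.

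**Figure D5:**
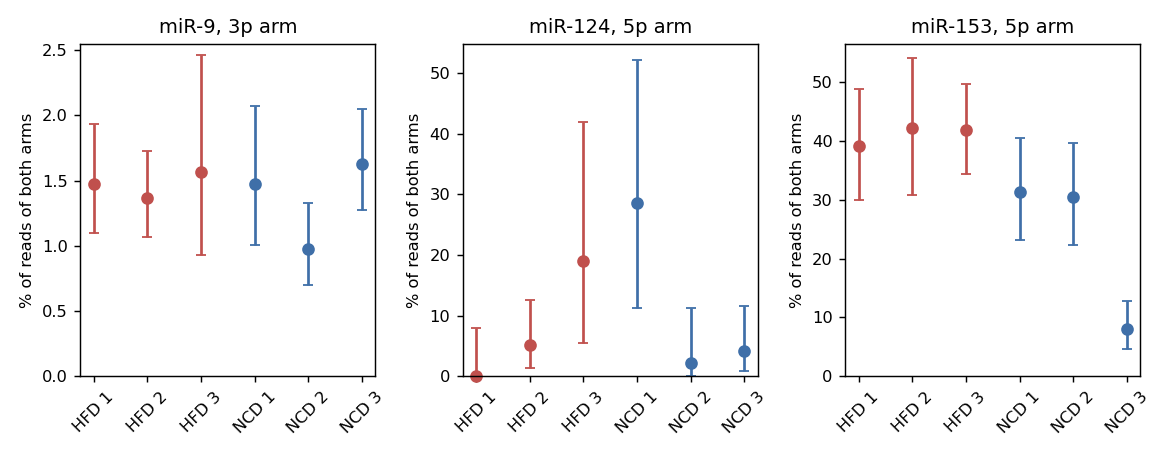
Share of the less abundant arm in the reads of both arms, in percent, for miR-9, miR-124 and miR-153 in each library, with exact 95% binomial intervals that cover counting error only. The miR-153 5p share is 39.1% to 42.1% in HFD and 8.08% to 31.4% in NCD libraries.

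All 22 miRNAs on a list of other brain-enriched miRNAs were in the table and 16 passed the filter on low counts. The highest by mean level were miR-129-5p, with 2782 ± 714 CPM in HFD and 3902 ± 899.5 CPM in NCD libraries, then miR-129-1-3p with 736 ± 257 and 1285 ± 1122 CPM and miR-129-2-3p with 133 ± 38.7 and 274 ± 223 CPM in HFD and NCD libraries (SD, n = 3 each). The miR-129-5p row held 188152 reads and the row of miR-129b-3p 185071. The sequences and strands of these rows were not compared here, so whether they share reads was not tested. The lowest were miR-551b-3p with 1 read in all, the oligodendrocyte miRNA miR-219a-5p with 3 reads and miR-135b-5p with 13. edgeR, DESeq2 and limma-voom each called 0 of the 16. At an unadjusted p under 0.05 in edgeR there were 2 of the 16, the CREB-induced miR-132-5p and miR-212-5p, beside 10.1% of all tested miRNAs. Of the 16, 10 had a positive and 6 a negative log2 fold change, with a median of 0.27, beside 0.02 over all tested miRNAs. Of the 8 other products of the member hairpins and close paralogues, 5 were in the table and 2, miR-9b-3p and miR-128-1-5p, passed the filter, with no call.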

How the data were processed

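Libraries were made with a NEBNext small RNA kit from column-purified total RNA, per the labels' protocols. The deposited table holds raw read counts per mature miRNA and, in further columns, TPM values that equal CPM on the raw totals (largest relative difference 4.61e-09), per the file headers and the values. No source used here names the aligner, the counter or the miRNA release. Counts were analysed with edgeR 4.0.16 in R 4.3.3: filterByExpr with a minimum count of 10, TMM factors, and the quasi-likelihood fit (legacy setting off) with diet as the only term. p-values were Benjamini-Hochberg adjusted over 406 miRNAs, with a threshold of 0.05. Arm ratios used 0.5 added to each arm, pairs with at least 10 reads per library, and exact permutation tests adjusted over all 172 pairs. DESeq2 1.42.0 and limma 3.58.1 (voom) were alternatives. Profiles are log2 CPM with 0.5 added to the count. All 8 members and the lists' extremes were named. Members and lists were chosen with earlier results of these data known. Only the edgeR fit was tested on simulated data, with planted changes larger than those of the members. The arm ratio tests and profile distances were not. Libraries of 1 diet differed beyond sampling noise (chi-square 378 to 1894 per degree of freedom).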

Additional observations from a re-analysis of the deposited data

How the results depend on the processing

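No member was called under any of the alternatives run. Over the whole table edgeR called 1 miRNA. That count became 3 with DESeq2, 8 when no filter was applied and 0 when libraries were scaled by their totals alone. Leaving out single libraries gave 0 (NCD 1) to 4 (NCD 2). Scaled by totals alone, the log2 fold changes turned to -0.33 for miR-9-5p, -0.29 for miR-9-3p, -0.18 for miR-124-3p, -0.24 for miR-128-3p and -0.098 for miR-218-5p. With limma-voom they were -0.25 for miR-9-5p, -0.16 for miR-9-3p and -0.0020 for miR-124-3p. With a mean of at least 100 counts, where 3 members were tested, miR-9-5p was at -0.080 and miR-128-3p at -0.050. With the replicate number as a block miR-9-5p was at -0.21, and no call of a member changed. The cause of these turns was not tested. When 1 library was left out, the values ran from -0.52 to 0.49 for miR-9-5p, -0.39 to 0.58 for miR-9-3p, -0.41 to 0.72 for miR-124-3p, -0.11 to 0.25 for miR-128-3p, -0.17 to 0.65 for miR-218-5p, -0.81 to -0.42 for miR-153-3p and 0.15 to 1.19 for miR-153-5p. Both miR-153 strands kept their sign under 15 of 15 alternatives. The arm ratio differences ran from -0.30 to 0.075 for miR-9 (positive without NCD 2), -0.51 to 1.75 for miR-124 (negative without HFD 1 or NCD 1) and -1.80 to -0.63 for miR-153. The summed level difference, 50.3 CPM at first, turned to -122 CPM on raw totals and ran from -111 to 234 CPM when 1 library was left out. Without a filter miR-124-5p had -0.27 (edgeR adjusted p = 0.941). Across miRNAs, the deviations from the diet means of equally numbered HFD and NCD libraries had correlations of 0.14, -0.24 and 0.30. The replicate numbers were not treated as pairing because the labels do not say that they pair animals. With 3 libraries per diet, these correlations could not settle it. The legacy setting, leaving out the repeated rows miR-9b-3p and miR-124b-3p, and limma on all arm ratios were chosen after seeing the data, and the first 2 turned no sign. Depth limits what can be said of miR-124-5p and the miR-128 5p strands, with 18 and 63 reads in all.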
